A study of Rattus norvegicus with 29 samples.

Results

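The open chromatin regions (OCRs) around Gad1 were taken as every OCR of the count table that overlaps the 200 kb between 56.78 and 56.98 Mb of chromosome 3 in the rat build rn6. The window held 15 OCRs of the 98237 in the table, and all 15 passed the filter on low counts. They are numbered OCR 1 to OCR 15 in order along the chromosome. OCR 3 to OCR 10, 8 of the 15, lay in the interval from 56.86 to 56.9 Mb that was given as the place of Gad1. An rn6 gene annotation was not used here, so whether an OCR lay in an exon, an intron or a promoter was not analysed here.

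The assay was ATAC-seq: a transposase inserts sequencing adapters where chromatin is open, and reads pile up there. Frozen tissue came from adult male Sprague-Dawley rats that had received 4 intraperitoneal injections, 2 h apart, of methamphetamine (METH) at 10 mg/kg or of saline at 1 mL/kg. There were 4 saline and 4 METH libraries each of the nucleus accumbens (NAc), of the hippocampal field CA, Ammon's horn, and of the dentate gyrus (DG), and 3 saline and 2 METH libraries of the subventricular zone (SVZ). The names carried by the peaks showed 8 animals, each used for several regions. The names of 13 libraries held a string that those of the other 16 lacked, and these 2 sets are taken here as batches. The sample labels name no batch, so this reading of the names is an inference. One of the 2 SVZ METH libraries, replicate 2, carried an additional tag of unknown meaning. All were bulk tissue from male rats alone, and the punched or dissected pieces hold many cell types, so more cells of a type with an open region and a region more open per cell cannot be told apart in any result here.

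Gad1 encodes GAD67, one of the enzymes that make the inhibitory transmitter GABA from glutamate. Most neurons of the NAc are GABAergic projection neurons, and the SVZ produces neuroblasts that become GABAergic interneurons of the olfactory bulb. The granule cells of DG and the pyramidal cells of CA are glutamatergic, and GABAergic interneurons are a minority there. The comparisons below ask whether the OCRs around Gad1 were more accessible in NAc and SVZ than in DG and CA, and whether METH changed them.

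In the order of genes that RefSeq gives for the later rat build GRCr8, the protein-coding genes before Gad1 are Sp5 and Erich2, and those after it are Gorasp2 and Tlk1, with lncRNA genes between them. The promoter of Gad1 is shown because the window was placed around this gene. It is the 250 bases before the RefSeq start, chr3:75777202-75777451 of GRCr8, plus strand, and its position in rn6 was not analysed here, so no OCR is assigned to it. Capitals mark a match to the letters TATAAA and a match to the motif of the Egr factors, activity-induced zinc finger proteins, on the minus strand.
Gad1 promoter: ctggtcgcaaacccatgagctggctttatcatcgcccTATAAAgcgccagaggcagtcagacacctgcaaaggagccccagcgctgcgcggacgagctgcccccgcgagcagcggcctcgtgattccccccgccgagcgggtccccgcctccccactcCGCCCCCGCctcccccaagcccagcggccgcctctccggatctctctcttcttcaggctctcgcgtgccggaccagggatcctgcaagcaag

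These 250 bases had a GC content of 68.4% and 23 CpG dinucleotides, against medians of 51.2% and 5 over 33469 RefSeq promoters cut to the same length. Both strands were searched for 6 motifs. The TATA letters TATAAA matched once, 213 bases before the start, and 12.9% of all these promoters held them. GCGGGGGCG, the Egr letters, matched once on the minus strand, 92 bases before the start, and 2.45% of promoters held them. The GC box letters GGGCGG matched once on the minus strand, overlapping the Egr match, and 30.5% of promoters held them. The E-box CAGCTG, the homeodomain letters TAATTA and the CRE letters TGACGTCA had no match in this window, and 12, 4.86 and 1.59% of promoters, respectively, held them.

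The 15 OCRs were 322 to 1354 bp wide, with a median of 683 bp. Their counts made up 1000 to 2587 reads per library, out of 7.55 to 19.4 M reads in OCRs (M for 1000000). Levels are given as CPM, counts per 1000000 reads in OCRs, on library sizes scaled by the upper quartile, and levels of different OCRs are compared per kb of OCR. OCR 15 was the most accessible, with a mean of 51.8 CPM per kb over the 29 libraries. OCR 1 and OCR 9 came next, with 17.2 and 11.6 CPM per kb. OCR 1 and OCR 15, which stand at the ends of the window and outside the interval given for Gad1, together held 24.2 to 54.1% of the window's CPM in NAc and SVZ libraries and 43.0 to 84.2% in DG and CA libraries. The share of all OCR counts that fell in the 10% most accessible OCRs of the table, a measure of signal against background, ran from 45.5 to 62.4% over the libraries. The levels of OCR 1 and OCR 15 ran along with it (Pearson r on log2 CPM of 0.74 and 0.78 over 29 libraries), while those of the 13 others ran against it (r from -0.15 to -0.68). The share is itself built from the counts of the most accessible OCRs. A highly accessible OCR thus tends to follow it and a weak one to run against it. Libraries also share animals, regions and batches, so these r are descriptions only.

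With saline, more reads fell in the window in NAc and SVZ than in DG and CA. The sum over the 15 OCRs was 144 ± 8.70 CPM in NAc and SVZ (SD, n = 7), with a range of 130 to 157 CPM. In DG and CA it was 104 ± 12.7 CPM (SD, n = 8), with a range of 86.4 to 128 CPM, so the groups did not overlap. Without OCR 1 and OCR 15, chosen as an exclusion after their values were seen, the sums were 79.7 ± 9.33 and 40.6 ± 17.0 CPM, with ranges of 64.6 to 92.2 CPM against 17.8 to 60.5 CPM. In METH libraries the sums over the 15 OCRs were 141 ± 27.0 CPM (SD, n = 6) in NAc and SVZ and 107 ± 15.4 CPM (SD, n = 8) in DG and CA. The METH ranges, 102 to 178 CPM and 81.6 to 123 CPM, overlapped, and the mean of the 2 SVZ METH libraries, 112.7 CPM, was no higher than that of the 4 DG METH libraries, 112.9 CPM.

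With saline, 7 of the 15 OCRs were called higher in NAc and SVZ than in DG and CA, namely OCR 2, 3, 4, 5, 7, 8 and 12, and 0 were called lower. A call needed a fold change above 2 and a false discovery rate (FDR, Benjamini-Hochberg over the whole table) under 0.01 in edgeR's quasi-likelihood test. Over all 98237 OCRs, 8.4% were called higher and 5.3% were called lower. At an FDR under 0.05 with no limit on the fold the count in the window was also 7, where 11.9% of all OCRs were higher at that threshold, and 9 had an unadjusted p under 0.05, where 15.3% of all OCRs were higher. The log2 fold change was above 0 in 13 of 15 OCRs, with a median of 1.02, beside a median of -0.05 over all OCRs. In 5 OCRs, numbers 2, 3, 4, 7 and 8, each of the 7 NAc and SVZ libraries was above each of the 8 DG and CA libraries, which 5.51% of all OCRs showed in this direction. Of the 7 called OCRs, 6 stood together along the chromosome from OCR 2 to OCR 8, with OCR 6 uncalled between them, and the other was OCR 12. OCR 7 and OCR 8 had peaks in NAc and SVZ libraries alone. Their place in these counts is thus in part fixed by how OCRs entered the table, as described below.

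OCR 8 (chr3:56875282-56875964, 683 bp, inside the interval given for Gad1) had the largest difference. Like OCR 7, it had peaks in NAc and SVZ libraries alone, which limits the reading of the difference, as described below. Its saline levels were 8.76, 3.46, 5.59 and 8.48 CPM in NAc and 3.38, 5.39 and 9.10 CPM in SVZ. In DG they were 1.62, 1.10, 1.75 and 0.659 CPM, and in CA they were 0.692, 0.394, 1.31 and 1.19 CPM. All 7 NAc and SVZ libraries thus lay above all 8 hippocampal libraries, with no overlap, and the raw counts behind them were 32 to 110 against 6 to 26. The difference was 5.80-fold (log2 fold change 2.54, SE 0.33, 95% interval 1.84 to 3.23, FDR 3.17e-05, edgeR). After METH it was 4.47-fold (log2 fold change 2.16, SE 0.42, FDR 0.00184), and the 6 NAc and SVZ libraries, from 2.11 to 5.44 CPM, again lay above the 8 DG and CA libraries, from 0.0953 to 1.91 CPM.

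The mean saline levels of OCR 8 fell in the order NAc (6.57 ± 2.52 CPM, SD, n = 4), SVZ (5.95 ± 2.90, n = 3), DG (1.28 ± 0.502, n = 4) and CA (0.897 ± 0.429, n = 4). The neighbours NAc and SVZ overlapped, as did DG and CA. The log2 fold change between NAc and SVZ was 0.15 (p 0.747, FDR 0.997) and that between DG and CA was 0.49 (p 0.319, FDR 1, both edgeR).

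OCR 7 (chr3:56867094-56867415, 322 bp, inside the same interval) was the second by size of the difference, 3.63-fold (log2 fold change 1.86, SE 0.38, FDR 0.00154, edgeR). With saline it had 2.14, 3.26, 3.89 and 3.85 CPM in NAc and 2.53, 2.95 and 2.36 CPM in SVZ. In DG it had 2.00, 0.731, 0.412 and 0.732 CPM, and in CA it had 0.415, 0.525, 1.23 and 0.505 CPM. The groups did not overlap, but DG replicate 1, at 2.00 CPM, came within a small margin of the lowest NAc library. Counts here were low, 4 to 57 per library with saline. After METH the difference was 4.03-fold (log2 fold change 2.01, SE 0.41, FDR 0.00255).

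OCR 12 (chr3:56929715-56930427, 713 bp, beyond the interval given for Gad1) was 3.49-fold higher in NAc and SVZ (log2 fold change 1.80, SE 0.41, FDR 0.00358, edgeR). Its saline levels were 4.48, 7.84, 13.7 and 9.40 CPM in NAc and 6.96, 6.69 and 7.33 CPM in SVZ. In DG they were 4.86, 0.731, 3.30 and 1.10 CPM, and in CA they were 0.692, 0.788, 3.20 and 3.44 CPM. One DG library, at 4.86 CPM, was above the lowest NAc library, at 4.48 CPM, so the groups overlapped. Its call was lost without NAc saline replicate 3 (FDR 0.0104) and without SVZ saline replicate 3 (FDR 0.0108). After METH the log2 fold change was 1.66 (SE 0.42, FDR 0.0103), just short of the threshold.

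OCR 3 (chr3:56860319-56860686, 368 bp), the first OCR inside the interval given for Gad1, was 3.08-fold higher in NAc and SVZ (log2 fold change 1.63, SE 0.28, FDR 3.63e-04, edgeR). NAc had 4.87, 4.48, 7.29 and 7.55 CPM with saline, and SVZ had 7.17, 6.43 and 7.09 CPM. DG had 2.57, 1.10, 2.68 and 1.83 CPM, and CA had 0.90, 1.71, 3.49 and 2.48 CPM. No library of DG or CA reached the lowest of NAc and SVZ. After METH the groups again did not overlap and the difference was 2.94-fold (log2 fold change 1.56, SE 0.26, FDR 6.36e-04).

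**Figure D1:**
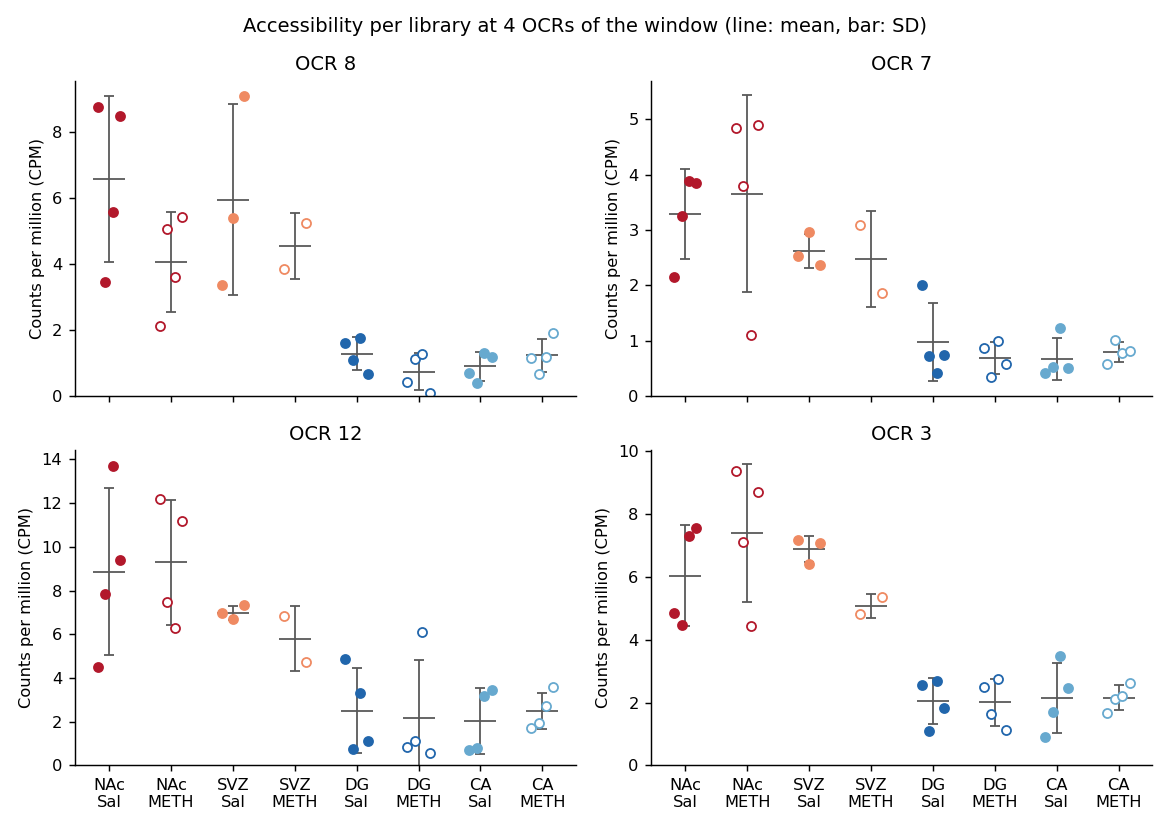
CPM per library (vertical axis) at OCR 8, 7, 12 and 3, the 4 OCRs with the largest difference with saline, for the 8 groups of region and treatment (filled circles saline, open circles METH, horizontal line mean, bar SD, n = 4 or, in SVZ, 3 and 2). At OCR 8 the NAc and SVZ saline libraries sit between 3.38 and 9.10 CPM and the DG and CA saline libraries between 0.394 and 1.75 CPM; at OCR 12 the groups overlap.

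OCR 2 (chr3:56857162-56857775, 614 bp) had the smallest SE of the called OCRs, with saline levels of 6.63 to 9.99 CPM (median 8.32) in the 7 NAc and SVZ libraries. In the 8 DG and CA libraries they were 2.74 to 4.57 CPM (median 3.87), with no overlap. The difference was 2.29-fold (log2 fold change 1.19, SE 0.19, FDR 1.50e-04, edgeR). In METH libraries it was 0.74 on the log2 scale (SE 0.27, FDR 0.0610) and the groups overlapped, since DG METH replicate 3 had 9.06 CPM where the other 3 DG METH libraries had 3.44 to 5.15 CPM. OCR 4 and OCR 5, outside the rule for naming and given because they were called, were 2.42-fold (FDR 0.00534) and 2.34-fold (FDR 0.00400) higher. They were the least stable calls. OCR 4 was lost in 7 and OCR 5 in 4 of the 15 fits that left out 1 saline library, with FDR up to 0.0170 and 0.0148. Those libraries were NAc saline 1, 3 and 4, DG saline 4, CA saline 1 and SVZ saline 1 and 3 for OCR 4, and NAc saline 4, DG saline 4 and SVZ saline 2 and 3 for OCR 5. OCR 2, 3, 7 and 8 were called in each of the 15, and without SVZ saline replicate 3 they were the only 4 of the 15 OCRs called.

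The other 8 OCRs were not called with saline. OCR 13 and OCR 15 were the only members with a log2 fold change below 0, at -0.20 (SE 0.40, FDR 0.826) and -0.08 (SE 0.16, FDR 0.825). At OCR 13 (chr3:56953826-56955179) the saline levels were 2.74 to 10.2 CPM (median 7.55) in NAc and SVZ and 1.28 to 15.5 CPM (median 7.94) in DG and CA. At OCR 15 (chr3:56966134-56967040) they were 35.4 to 53.8 CPM (median 46.0) and 33.8 to 71.2 CPM (median 45.5). These groups overlapped nearly throughout, and the interval for OCR 15, -0.42 to 0.27, left room for a difference of less than 1.5-fold in either direction. OCR 1 (chr3:56802681-56803737) had 12.6 to 27.9 CPM against 9.73 to 24.3 CPM, with a log2 fold change of 0.23 (95% interval -0.28 to 0.73). OCR 9 (chr3:56892038-56892786, inside the interval given for Gad1) had 8.43 to 13.2 CPM against 1.64 to 11.9 CPM, with a log2 fold change of 0.61 (SE 0.36, FDR 0.270). OCR 6 had 2.34 to 4.22 CPM against 0.525 to 3.61 CPM and missed the threshold (log2 fold change 1.02, SE 0.37, FDR 0.0518, edgeR).

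In METH libraries 4 OCRs, numbers 3, 6, 7 and 8, were called higher in NAc and SVZ and 0 were called lower, where 7.37% and 2.25% of all OCRs were called higher and lower. At an FDR under 0.05 the count was 9 of 15, all higher in NAc and SVZ, where 13.5% of all OCRs were. OCR 3, 7 and 8 did not overlap between the groups, and 3.68% of all OCRs likewise did not in this direction. Animals with METH are not those with saline, so OCR 3, 7 and 8 were called in both sets of animals. OCR 7 and OCR 8 had peaks in NAc and SVZ libraries alone, with saline and with METH. Their calls in either set are thus in part fixed by the selection described below. The difference between the METH effects, which tests whether the regional difference changed, is given below.

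**Figure D2:**
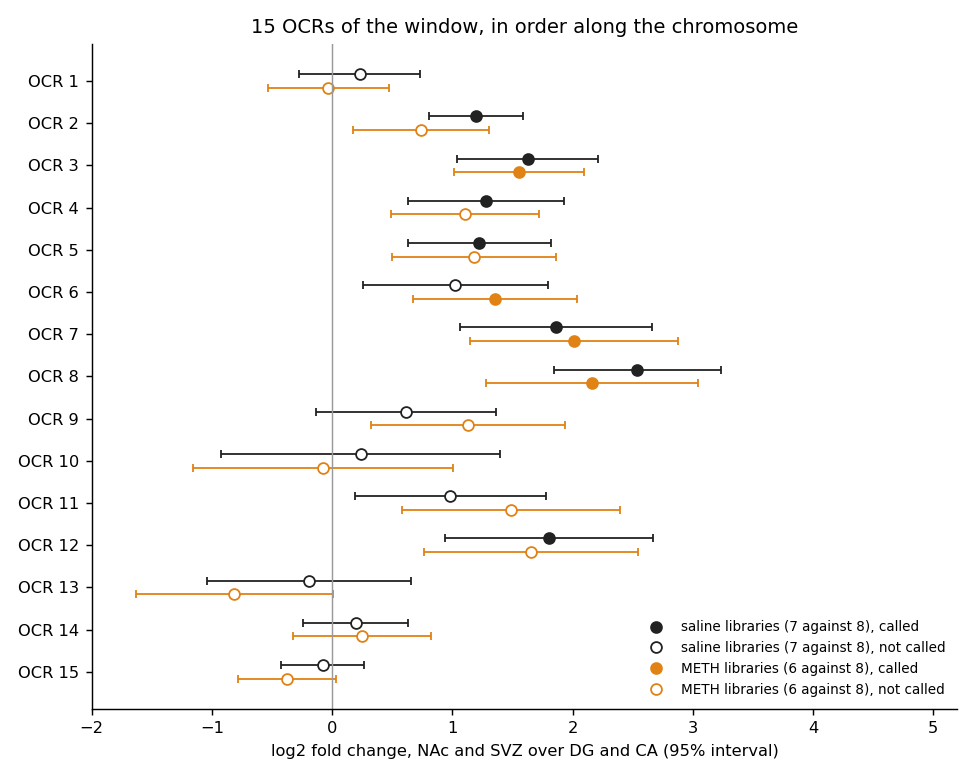
Log2 fold change of NAc and SVZ over DG and CA (horizontal axis, bars 95% interval) for the 15 OCRs in order along the chromosome (vertical axis), in 15 saline libraries (black) and 14 METH libraries (orange), with filled circles for OCRs called at a fold change above 2 and FDR under 0.01. The whole intervals of OCR 2 to OCR 8 and of OCR 11 and 12 sit to the right of 0 in both sets, and the log2 fold change of OCR 8 reaches 2.54 with saline.

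Region by region, OCR 2 was called in each of the 4 comparisons of 1 region with another across the 2 kinds of tissue. NAc against DG gave calls at OCR 2 and 8 (2 of 15, where 4.74% of all OCRs were called higher). NAc against CA gave calls at OCR 2, 7 and 8 (3 of 15, against 5.77%). SVZ against DG gave a call at OCR 2 alone (1 of 15, against 1.67%), and SVZ against CA gave calls at OCR 2 and 8 (2 of 15, against 2.42%). At OCR 8 the log2 fold change was 2.37 (SE 0.46) for NAc against DG, 2.85 (SE 0.46) for NAc against CA, 2.22 (SE 0.48, FDR 0.0101) for SVZ against DG and 2.71 (SE 0.48) for SVZ against CA. None of the 15 was called lower in any of these 4 comparisons. Leaving out each of the 15 saline libraries in turn, OCR 8 kept its call in 13 fits for NAc against DG, 15 for NAc against CA and 13 for SVZ against CA. It was lost without NAc or DG saline replicate 4 in the first of these, and without CA saline replicate 1 or SVZ saline replicate 3 in the last. OCR 2 kept its calls in only 3 to 6 of the 15 fits, and OCR 7 kept its call against CA in 8 of 15. These comparisons share libraries, so they are not independent of each other.

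Since the regions came partly from the same animals, the fits were repeated with a block. With the animal as a block, SVZ against DG gave 1 call and SVZ against CA 2, the same OCRs as without it, where 1.3% and 1.95% of all OCRs were called higher. NAc against CA gave 5 calls (OCR 2, 3, 7, 8 and 12), and the share over all OCRs was 7.78%, also above that without the block. With the replicate number as a block, which in SVZ marks the animal for 1 library alone, SVZ against DG gave 3 calls (OCR 2, 3 and 8) and SVZ against CA gave 4 (OCR 2, 3, 4 and 8), and the shares over all OCRs were likewise higher, at 2.57% and 3.53%. The pooled comparison gave the same 7 OCRs with either block.

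Within the 2 kinds of tissue no OCR of the window was called. NAc against SVZ gave 0 of 15, and 0% of all OCRs were called (edgeR). DESeq2 also gave 0, and 1 of 15 had an unadjusted p under 0.05, as had 3.81% of all OCRs. That was OCR 11 (chr3:56920013-56920662), outside the rule for naming, whose saline levels were 2.92, 1.94, 2.32 and 2.00 CPM in NAc and 8.55, 3.82 and 2.95 CPM in SVZ (log2 fold change -1.15 for NAc over SVZ, SE 0.54, p 0.0485, FDR 0.997). The lowest SVZ library, at 2.95 CPM, was close to the highest NAc library, at 2.92 CPM. In SVZ METH replicate 1 the level was 12.9 CPM, and in replicate 2 it was 3.61 CPM. DG against CA gave 0 of 15, with 0% of all OCRs called and 0 of 15 with an unadjusted p under 0.05, which 0.893% of all OCRs had, and DESeq2 also gave 0.

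Both batches had libraries of all 4 regions with saline. Within batch 1, with 3 NAc and SVZ against 4 DG and CA libraries, 8 OCRs (2 to 8 and 11) were higher in each NAc and SVZ library than in each DG and CA library, as were 12.6% of all OCRs. Within batch 2, with 4 against 4 libraries, 7 OCRs did so (2, 3, 4, 5, 7, 8 and 12), as did 10.9% of all OCRs. At OCR 8 the log2 fold change was 2.39 (SE 0.49, FDR 0.0349) in batch 1 alone and 2.55 (SE 0.37, FDR 4.28e-04) in batch 2 alone. In batch 1 alone 0 of the 15 were called higher, and 34 OCRs of the whole table were (0.0346%). In batch 2 alone OCR 2, 3, 7, 8 and 12 were called higher, as were 7.07% of all OCRs. OCR 1 and OCR 15 were higher in batch 1, with medians of 24.0 and 53.8 CPM over 13 libraries against 13.5 and 41.1 CPM over 16 libraries in batch 2. OCR 9 was lower in batch 1, with a median of 5.76 against 11 CPM. The part of batch in these levels was not tested.

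Peaks had been called in each library on its own, and 190 of the 435 pairs of an OCR and a library had a peak over the OCR by at least 1 bp. OCR 1 and OCR 15 had a peak in each of the 29 libraries, with fold enrichments over local background of 5.99 to 21.8 and 17.4 to 26.7. OCR 8 had a peak in 6 of 13 NAc and SVZ libraries, 4 saline and 2 METH, and in 0 of 16 DG and CA libraries, and OCR 7 had one in 2 and 0. The OCRs were merged from peaks, so OCR 7 and OCR 8 entered the count table through NAc and SVZ libraries alone. Their higher counts in NAc and SVZ, and these peak counts, are in part fixed by that selection. OCR 12 had a peak in 13 of 13 against 6 of 16 libraries and OCR 3 in 7 against 2. The median fold enrichment of the OCR 12 peaks was 8.12 in NAc and SVZ and 6.05 in DG and CA.

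The peak lists and the counts did not order each OCR in the same way. OCR 2, which had more reads in NAc and SVZ with saline, had a peak in 8 of 13 NAc and SVZ libraries and in 13 of 16 DG and CA libraries, and these peaks covered at least 50% of the OCR in 3 and 4 libraries. Its peaks had a median fold enrichment of 4.41 in NAc and SVZ and 5.41 in DG and CA. OCR 10 (chr3:56893506-56893880, outside the rule for naming) had peaks in DG and CA alone, in 5 of 16 libraries, while its saline levels were 1.53 to 3.21 CPM in NAc and SVZ and 0.197 to 4.19 CPM in DG and CA. OCR 13 had a peak in 5 of 13 against 12 of 16 libraries. A peak is called against the local background of its own library, and the differences between peak lists were not tested.

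**Figure D3:**
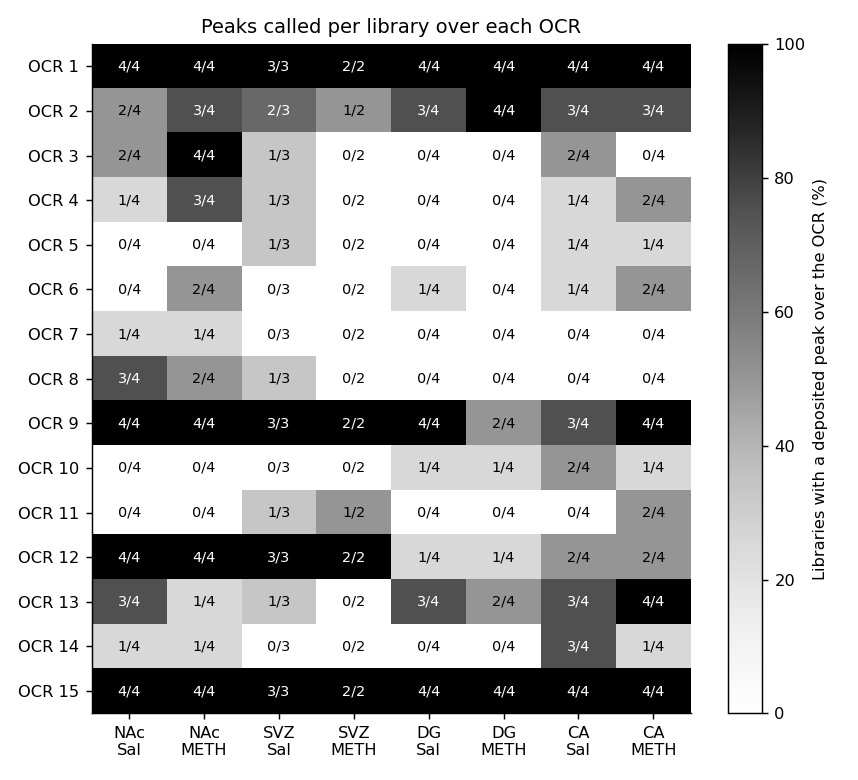
Number of libraries with a deposited peak over each OCR (rows, in order along the chromosome) in the 8 groups (columns), written as libraries with a peak over all libraries of the group and shaded by percent. OCR 1 and OCR 15 have a peak in each of the 29 libraries, and OCR 8 has peaks in NAc and in SVZ saline and none in the 16 DG and CA libraries.

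METH against saline gave no call in the window in any region. A call here needed a fold change above 1.5 and an FDR under 0.001 in a model of all 29 libraries. In NAc, DG, CA and SVZ 0 of 15 OCRs were called, and 0% of all OCRs were called in each (edgeR). The study, which had removed unwanted variation from its counts, reported differentially accessible regions in each region at these thresholds. The 0% thus belongs to the fit without such removal. DESeq2 called 0 of the 15 in each region as well, though in SVZ it gave no adjusted p for 13 of them. An unadjusted p under 0.05 was found at 0 of 15 OCRs in NAc, DG and SVZ and at 1 of 15 in CA, beside 2.45, 9.84, 3.47 and 0.82% of all OCRs, respectively. When 5 factors of unwanted variation were removed, 0 of the 15 were called in each region, while the whole table then had 4571 calls in DG, 215 in SVZ, 12 in NAc and 0 in CA. Counts were also simulated for METH against saline in DG on 98237 OCRs. In them the edgeR test recovered 16% of 100 OCRs changed by 4-fold and 2% of 100 changed by 2-fold. Most changes of such sizes were thus missed in the simulation. Only these OCRs were changed there, so the percentages do not give the power of the test on the data.

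In NAc the lowest p values were at OCR 8 and OCR 13. OCR 8 had 2.11, 5.08, 3.60 and 5.44 CPM with METH, beside 8.76, 3.46, 5.59 and 8.48 CPM with saline (log2 fold change -0.69, 95% interval -1.63 to 0.25, p 0.144, FDR 1, edgeR). OCR 13 had 3.02, 7.11, 2.40 and 3.81 CPM with METH and 7.60, 6.11, 7.64 and 7.55 CPM with saline (log2 fold change -0.82, 95% interval -1.97 to 0.33, p 0.154, FDR 1). Both OCRs overlapped between the groups, at OCR 13 through METH replicate 2 and saline replicate 2. All 15 OCRs overlapped in NAc, where 2.95% of all OCRs did not.

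In DG they were at OCR 6 (chr3:56866496-56866829) and OCR 2. OCR 6 had 1.12, 0.774, 0.985 and 1.05 CPM with METH and 1.24, 0.548, 3.61 and 1.61 CPM with saline (log2 fold change -0.82, 95% interval -1.79 to 0.15, p 0.0937, FDR 0.495, edgeR), and without saline replicate 3 the log2 fold change was -0.22. OCR 2 had 3.44, 3.61, 9.06 and 5.15 CPM with METH and 4.57, 2.74, 4.43 and 3.22 CPM with saline (log2 fold change 0.50, p 0.0956, FDR 0.496), and without METH replicate 3 it was 0.12. One library thus carried most of each difference. All 15 OCRs overlapped in DG, where 2.54% of all OCRs did not, and the median log2 fold change was -0.25 over the 15 OCRs and -0.15 over all OCRs. With DESeq2 size factors the median over all OCRs in DG was -0.0059, so values in DG are read relative to that shift.

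In CA the lowest p in the window, and in any region, was at OCR 14 (chr3:56957722-56958557). It had 2.45, 2.28, 3.04 and 3.53 CPM with METH and 4.99, 5.05, 4.0 and 3.26 CPM with saline. The log2 fold change of METH over saline was -0.60 (SE 0.28, 95% interval -1.18 to -0.03, p 0.0393, FDR 1, edgeR), with METH replicate 4 above saline replicate 4. In batch 1 alone the log2 fold change was -1.08 and in batch 2 alone -0.14. OCR 6 was next, with 0.721, 1.52, 2.11 and 2.91 CPM against 1.32, 0.525, 1.74 and 1.74 CPM (log2 fold change 0.45, p 0.319, FDR 1). All 15 OCRs overlapped in CA, where 0.847% of all OCRs did not.

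In SVZ, with 2 METH and 3 saline libraries, 13 of 15 OCRs had a log2 fold change below 0, with a median of -0.38 beside -0.01 over all OCRs. Batch 1 held 1 of the 3 saline libraries and 0 of the 2 METH libraries. METH and batch are thus in part confounded in SVZ, and the part of batch was not tested. Both METH libraries were below all 3 saline libraries at OCR 2, 3, 4 and 14, 4 of 15, where 20.2% of all OCRs did not overlap in one direction or the other. OCR 15 had the lowest p, with 15.8 and 39.0 CPM after METH and 46.0, 40.1 and 35.4 CPM with saline (log2 fold change -0.57, 95% interval -1.20 to 0.07, p 0.0792, FDR 1, edgeR). It rested on METH replicate 1: without that library the log2 fold change was -0.06, and without replicate 2, the library with the additional tag, it was -1.36. OCR 2 had 6.94 and 6.29 CPM against 9.81, 9.99 and 8.27 CPM (log2 fold change -0.50, 95% interval -1.26 to 0.26, p 0.189, FDR 1), and without METH replicate 2 it was -0.43.

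**Figure D4:**
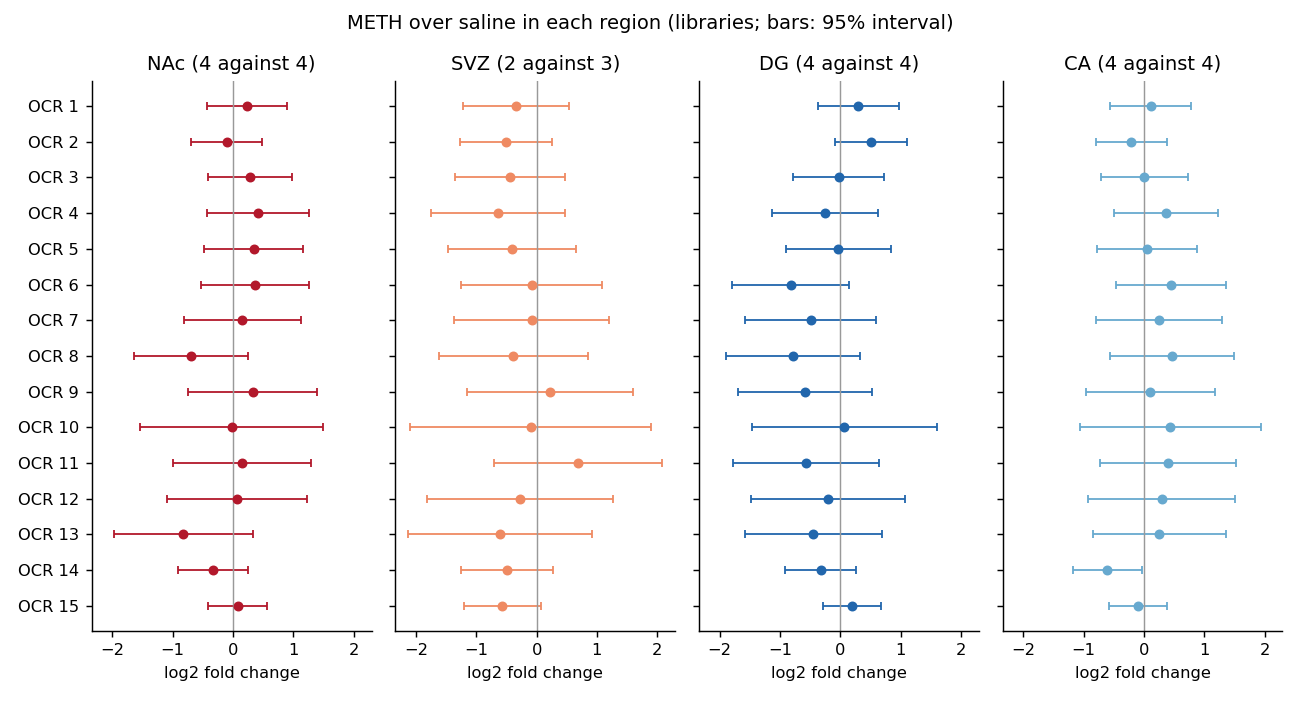
Log2 fold change of METH over saline (horizontal axis, bars 95% interval) at the 15 OCRs (vertical axis) in NAc, SVZ, DG and CA, with the number of METH and saline libraries above each panel. All intervals but that of OCR 14 in CA (-1.18 to -0.03) include 0, and none of the differences was called.

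The METH effect was also compared between NAc and SVZ on one side and DG and CA on the other. None of the 15 OCRs was called, at a difference above 1.5-fold and an FDR under 0.001, and 0% of all OCRs were called (edgeR). DESeq2 called 0 of the 15 and 1 of the whole table, and 0 of 15 had an unadjusted p under 0.05, which 1.33% of all OCRs had. At OCR 8 the METH effect in NAc and SVZ was lower than that in DG and CA by a log2 value of -0.38 (SE 0.53, p 0.485, FDR 1), and at OCR 2 by -0.45 (SE 0.31, p 0.156, FDR 1), the lowest p of the 15. The regional difference at these OCRs with saline and after METH was thus not shown to differ, although OCR 2 was called with saline and not after METH.

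The OCRs whose levels over the 29 libraries ran most like those of OCR 8 lay on other chromosomes. Pearson r of log2 CPM with OCR 8 was 0.95 at chr2:265744145-265744840, 0.94 at chr20:20284454-20285415 and 0.94 at chr1:52702747-52703406, the highest 3 of the table outside the window. Inside the window the most alike were OCR 3 and OCR 12, both with r of 0.84, and OCR 7 with r of 0.76, and the least alike was OCR 15 with r of -0.27. The libraries share regions, animals and batches, so r describes these 29 libraries and carries no p.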

How the data were processed

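Per the submitters' processing notes, the build was rn6 and bedtools was used; the study ran the AIAP pipeline with default parameters, called peaks per library and merged them with mergeBed. The deposited values are raw, unscaled read counts for each OCR and library, and the authors' peak lists give a fold enrichment ratio and the −log10 of q, used only to describe peaks. AIAP's version and the tool that counted reads are not given in the sources used here.

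Counts were analysed with edgeR 4.0.16 in R 4.3.3 (upper-quartile normalization, filterByExpr, trended dispersion, robust quasi-likelihood fits, Benjamini-Hochberg adjustment over all 98237 OCRs). Regions were compared in 15 saline libraries and METH with saline in a model of 29. DESeq2 1.42.0 was an alternative. RUVr was written from its published formula with 5 factors, a number the study does not give. Pooled contrasts weigh NAc and SVZ, and DG and CA, equally. SE is the log2 fold change over the root of F, and a 95% interval uses the total degrees of freedom of the fit. On counts simulated for NAc and SVZ against DG and CA over 98236 OCRs, 80% of 100 OCRs changed by 4-fold and 13% of 100 changed by 2-fold were recovered. Few OCRs were changed there, whereas 13464 were called in the data, and a 2-fold change lies at the limit on the fold itself. These percentages therefore do not give the power of the pooled test on the data. Depth limits precision at the OCRs with few reads. The intervals are for the difference between groups, not for the range of single libraries. The fits without a block treat libraries of the same animal as independent.

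Named OCRs are the 4 with the largest fold change towards NAc and SVZ, those with a fold change the other way (up to 3), the 3 with the highest CPM per kb and, for METH, the 2 with the lowest p in each region. The window and lists were chosen with earlier results of these data known. Lists of other GABA genes and of cell type markers need an rn6 annotation and were not used here, so the labelled tissues were not checked against markers. Animals were read from the peak names, and batches were inferred from a string in them. Equal replicate numbers within a treatment marked 1 animal across NAc, CA and DG, whereas in SVZ this held for saline replicate 1 alone. Over 39 pairs of libraries of 1 animal, deviations from group means correlated with r from -0.43 to 0.66, 15 of them above 0.1.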

Additional observations from a re-analysis of the deposited data

Results flagged for a closer look

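In 6 of 96 groups of 4 libraries, 1 library stood apart from the other 3 by Dixon's criterion, which chance meets in about 1 of 20 groups. CA saline replicate 3 was high at OCR 7, with 1.23 CPM where the others had 0.415 to 0.525 CPM, and at OCR 11, with 3.34 CPM where the others had 1.04 to 1.29 CPM. DG METH replicate 3 was high at OCR 10, with 5.81 CPM beside 0.946 to 1.12 CPM, and at OCR 12, with 6.11 CPM beside 0.572 to 1.12 CPM. CA METH replicate 4 was high at OCR 10, with 5.29 CPM beside 1.15 to 1.39 CPM. NAc saline replicate 2 was low at OCR 13, with 6.11 CPM beside 7.55 to 7.64 CPM.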

How the results depend on the processing

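The 7 OCRs called higher in NAc and SVZ with saline were called again with TMM normalization, DESeq2, no filter, a filter of 1 CPM in 4 libraries, all 29 libraries in 1 model, the replicate block and the animal block, and OCR 6 joined them, for 8, with the share of counts in the top decile of OCRs as covariate. The count was 4 in METH libraries, and, chosen after seeing the data, 0 in batch 1 alone and 5 in batch 2 alone. NAc against DG went from 2 to 5 with DESeq2, 4 with the top-decile share and 0 in batch 1. NAc against CA went from 3 to 5 with the animal block, 6 with the top-decile share, 0 in batch 1 and 1 in batch 2. SVZ against DG went from 1 to 4 with DESeq2, 0 in METH libraries, 2 with all 29 libraries, 3 with the replicate block, 4 with the top-decile share, and 0 in either batch. SVZ against CA went from 2 to 5 with DESeq2, 0 in METH libraries, 4 with the replicate block, 6 with the top-decile share, 0 in batch 1 and 1 in batch 2. The share of all OCRs called higher moved too. In the pooled comparison it was 8.4%, and became 7.85% with TMM normalization, 9.49% with DESeq2 and 8.48% with all 29 libraries. There it became 9.77% with the replicate block, 8.85% with the animal block and 10.1% with the top-decile share. It was 4.74% for NAc against DG and 1.67% for SVZ against DG, and became 7.61 and 4.33% with DESeq2 and 8.15 and 3.29% with the top-decile share. For NAc against CA it went from 5.77 to 10% and for SVZ against CA from 2.42 to 4.91% with the top-decile share, and in METH libraries SVZ against DG and CA had 0.507 and 1.35%. With DESeq2 it was 4.65% for SVZ against CA. In batch 1 it was 0 for these 4 comparisons. In batch 2 it was 3.86% for NAc against CA, 0.555% for SVZ against DG and 2.81% for SVZ against CA. The batch fits had fewer libraries, and otherwise the cause was not tested.

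Leaving out 1 library gave 4 (without SVZ saline replicate 3) to 7 calls in the pooled comparison, 0 (without NAc saline replicate 4) to 3 for NAc against DG, 1 (without NAc saline replicate 2) to 5 (without DG saline replicate 2) for NAc against CA, 0 to 2 for SVZ against DG, 0 (without CA saline replicate 1) to 2 for SVZ against CA, and 0 in each fit for NAc against SVZ, DG against CA and the METH comparisons. The share over all OCRs in each of these fits is not given here. The METH comparisons had 0 calls in the window under each alternative run. The replicate block changed no call among them, and there equal numbers mark different animals.

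Signs turned at OCRs with small differences. OCR 1 went to -0.031 in METH libraries and ran from -0.0040 (without SVZ saline replicate 1) to 0.33 with 1 library left out, and OCR 10 went to -0.077 in METH libraries. OCR 13 went to 0.014 with the replicate block and ran from -0.52 to 0.076 (without CA saline replicate 3), and OCR 15 went to 0.017 with the animal block and 0.19 in batch 2 and ran from -0.15 to 0.039 (without DG saline replicate 2). For METH in DG, OCR 6 went to 0.086 and OCR 2 to -0.050 in batch 1 alone. The pooled window sum differed by 40.2 CPM, by 38.5 on TMM sizes and by 41.4 on total counts. Requiring a peak to cover 50% of an OCR left 121 of 190 pairs, and a −log10 q above 5 left 177.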

Other observations

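In the window 32 of 224 deposited peaks overlapped none of the 15 OCRs, in 12 separate intervals. Peaks at chr3:56924515-56925011 were found in 9 libraries, 3 from NAc and 6 from DG and CA, with fold enrichments of 3.71 to 5.81. Peaks at chr3:56919479-56919715 were found in 5 libraries, 2 from NAc and 3 from DG and CA, all of them saline. Peaks at chr3:56816097-56816400 were found in 3 libraries, all from NAc, and peaks at chr3:56887683-56887924 and chr3:56940006-56940679 were each found in 3 libraries, all from DG and CA. These intervals have no counts in the table, so they were not compared between groups.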
